A study of Homo sapiens and Mus musculus with 12 samples.

Results

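The genes described here are the zinc finger protein genes of mouse colon: the symbols made of Zfp and a number whose mean was at least 1 FPKM (a density of sequenced fragments, corrected for transcript length and library size) over 6 libraries, without the Zfp280 genes, together with 4 genes that carry placeholder symbols, 5730507C01Rik, 9030624G23Rik, Gm13251 and 2410141K09Rik. There were 242 such genes of 17383 in the table, 238 with a numbered Zfp symbol and the 4 placeholders. The table lists 330 numbered Zfp symbols; the other 92 had a mean under 1 FPKM, and 0 of them were listed at 0 in all 6 libraries. The libraries came from the colon of C57BL/6J mice killed at 12 weeks of age, 3 of them Zfp280c knock-out and 3 wild-type. How the knock-out allele was made, how the mice were bred and which stretch of colon was taken are not given in the sources used here, and nothing says that each library came from a separate animal, so errors and p-values measure only the spread between these libraries.

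Of the members, 5 had been chosen because they differ between these groups: Zfp809 and the 4 placeholder genes. Their difference is therefore described and not tested. The remaining 237 were taken by name and mean level. The lowest members by mean level were Zfp563 at 1.01, Zfp418 at 1.02 and Zfp369 at 1.03 FPKM. Just below the minimum lay Zfp72 at 0.993, Zfp560 at 0.972 and Zfp316 at 0.970 FPKM. As the minimum is set on the mean of 6 libraries, a gene can meet it through 1 group. Among the genes named below, Zfp428, Zfp618 and Zfp775 had knock-out means of 0.973, 0.623 and 0.950 FPKM. Zfp667, Zfp503 and 2410141K09Rik had wild-type means of 0.970, 0.900 and 0.793 FPKM. The place of such genes among the members is tied to the group where they are high.

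A zinc finger is a small protein fold held by a zinc ion, and proteins with rows of C2H2 fingers bind DNA, with several fingers reading neighbouring bases. In mammals most numbered Zfp genes belong to this C2H2 class, and many also encode a KRAB domain, which recruits the corepressor TRIM28 (KAP1) and through it the histone methyltransferase SETDB1. Many KRAB zinc finger proteins bind endogenous retroviruses and other transposable elements and hold them silent. ZFP809 is the textbook example, a KRAB protein that recognises the proline tRNA primer binding site of murine leukaemia viruses. The genes multiplied by duplication and lie in clusters of similar copies, so reads from near-identical copies can be hard to assign, and values of such genes carry that uncertainty. Some numbered Zfp genes are of another kind, such as Zfp36, whose fingers bind AU-rich mRNA and speed its decay. Whether the 4 placeholder genes encode zinc fingers was not checked from sequence here.

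The labels held at the deleted gene. For Zfp280c, knock-out libraries had 0.09, 0.09 and 0.22 FPKM, and wild-type libraries 2.48, 2.25 and 3.17. Wild-type replicate 2 resembled the knock-outs at genes that mark position along the gut. A position score was taken as the mean log2(FPKM + 1) of the proximal genes Hoxb6 to Hoxb8 less the mean of Hoxb13 and Hoxd10 to Hoxd13, which mark distal gut. It was 3.08, 1.92 and 2.39 for the 3 knock-outs and -1.60, 2.52 and -4.04 for wild-type replicates 1, 2 and 3. The main counts below are given with and without wild-type replicate 2. Colon epithelial markers were present in every library (summed over 8 genes, 15735 to 18946 FPKM in knock-outs and 10782 to 18074 in wild-types). The summed level of 6 adipocyte markers was 56.7 to 129 FPKM in the knock-outs and 7.58 to 39.1 in the wild-types, and that of 10 interferon-stimulated genes 867 to 1098 against 191 to 823. In 5 of these 6 adipocyte and 7 of these 10 interferon-stimulated genes the groups did not overlap, against 16.9% of all genes tested. The same held for 1 of 8 epithelial markers, 2 of 4 endothelial markers and 0 markers of the other lists. Smooth muscle, T cell, B cell and plasma cell, macrophage and enteric neuron and glia sums overlapped between groups, and the endothelial sum was 1.49 to 2.49 FPKM in knock-outs and 2.35 to 4.19 in wild-types. No marker of these lists was at 0 in all libraries, and the part of these differences in the values below was not tested. In whole tissue, fewer cells of a type and less RNA per cell cannot be told apart.

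Zfp809 stood at 12.77, 12.99 and 14.56 FPKM in knock-out colon and at 7.54, 8.47 and 6.78 in wild-type colon. The groups did not overlap, and the lowest knock-out library was 1.51 times the highest wild-type library. The means were 13.4 ± 0.976 and 7.60 ± 0.846 FPKM (SD, n = 3 each), a ratio of 1.77 and a log2 fold change of 0.75 ± 0.11 on the log2(FPKM + 1) scale (SE). Among the placeholder genes, 5730507C01Rik (Entrez gene 236366) had 32.18, 31.68 and 29.09 FPKM in knock-outs and 6.29, 10.95 and 6.85 in wild-types. It was the member with the widest difference, 3.86 times the wild-type mean, and even wild-type replicate 2, the highest of its group, lay 1.42 below the knock-out mean on the log2(FPKM + 1) scale. 9030624G23Rik (Entrez gene 66808) followed at 5.38, 5.24 and 4.86 FPKM against 0.98, 2.16 and 1.14. Here too wild-type replicate 2 was the highest of the wild-types and still 0.96 below the knock-out mean in log2. Gm13251 (Entrez gene 433791) had 4.36, 4.21 and 4.10 FPKM in knock-outs and 1.96, 2.53 and 1.77 in wild-types. Wild-type replicate 2 was again the wild-type library nearest to the knock-outs. In 2410141K09Rik (Entrez gene 76803) the knock-outs stood at 2.14, 1.91 and 1.78 FPKM and the wild-types at 0.89, 0.85 and 0.64, and wild-type replicate 2 lay within the other wild-types.

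**Figure D1:**
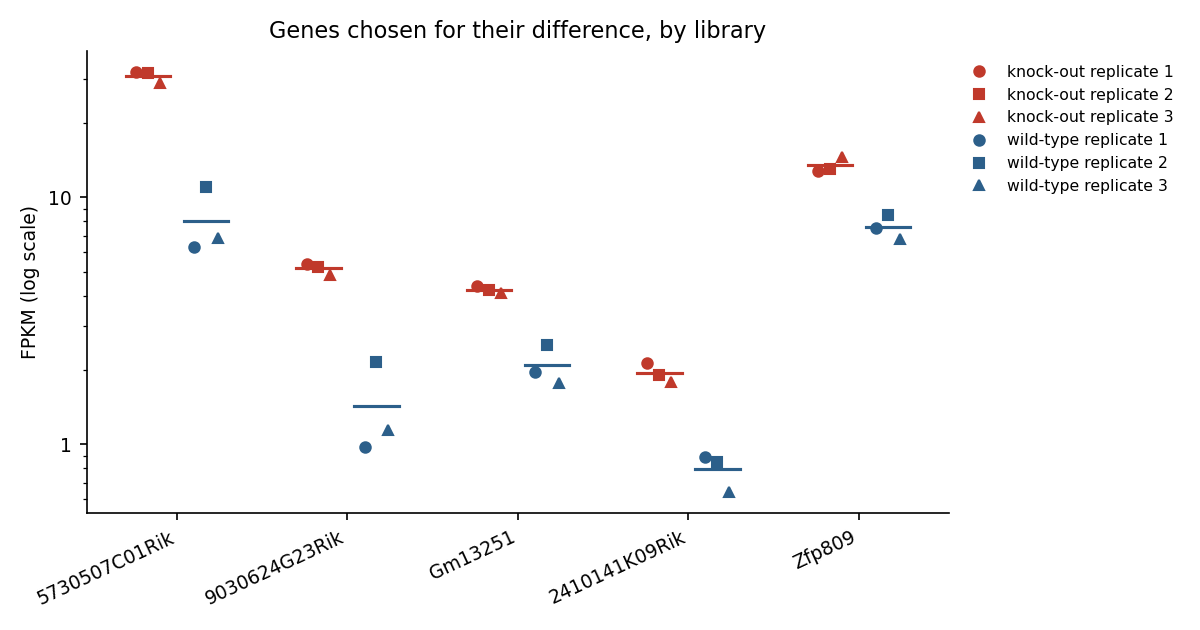
FPKM (log axis) of the 5 genes chosen for their difference, with 1 point per library (red, 3 knock-out; blue, 3 wild-type; marker shape, replicate number) and a line at each group's mean. In each gene all knock-out points lie above all wild-type points, with 5730507C01Rik at 29.09 to 32.18 against 6.29 to 10.95 FPKM.

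The 5 chosen genes had similar profiles over the libraries, which follows largely from their choice for the same difference between groups. Of the members, Gm13251 (Pearson r = 0.98), 5730507C01Rik (0.97), 9030624G23Rik (0.97), 2410141K09Rik (0.95) and Zfp688 (0.94) were most like Zfp809 in log2(FPKM + 1) over 6 libraries. Among all genes tested, Papd4 (0.99), Lrrc8b (0.98), Gtpbp8 (0.98), Gm13251 and Foxo6 (0.98) came first. These correlations describe 2 groups of 3 libraries, and the difference between the groups, for which the 5 were chosen, enters them. Within the knock-outs Zfp809 was highest in replicate 3 (14.56 FPKM), where each of the 4 placeholder genes was lowest. Their correlations with the position score were 0.75 to 0.84. With that score fitted as a covariate all 5 log2 differences were smaller. They were 1.51 in place of 1.86 (5730507C01Rik), 1.05 in place of 1.37 (9030624G23Rik) and 0.58 in place of 0.77 (Gm13251). For 2410141K09Rik the difference was 0.63 in place of 0.72, and for Zfp809 0.61 in place of 0.75. That fit rests largely on wild-type replicate 2, the only wild-type library with a score among those of the knock-outs.

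Over all members, 0 of 242 passed the test between knock-out and wild-type (limma, Benjamini-Hochberg adjusted p under 0.05 over 11366 genes), against 0.0% of all genes tested. The deleted gene, Zfp280c, did not pass either (log2 fold change -1.67, adjusted p = 0.123, limma). Not passing, here and below, therefore does not show that a gene is unchanged. At an unadjusted p under 0.05 there were 22 members, or 9.09%, against 12.5% of all genes. Groups did not overlap in 37 of the 242 members, 15.3%, against 16.9% of all genes tested. Of these, 20 were higher in knock-outs, where the share over all genes was 7.13%, and 17 lower, where it was 9.79%. These counts include the 5 chosen genes. Without them 17 of 237 had an unadjusted p under 0.05 (7.17%) and 32 were separated (13.5%), 15 higher and 17 lower. The share of separated members was thus near the background, and the median log2 fold change of the members, -0.03, was near that of all genes, -0.02. The members' typical difference was small, with a median absolute log2 fold change of 0.10 against 0.13 for all genes tested. By level, 15.5% of 97 members between 1 and 3 FPKM, 15.7% of 108 between 3 and 10 and 13.5% of 37 above 10 were separated, against 13.8%, 14.1% and 19.6% of all genes in these ranges.

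**Figure D2:**
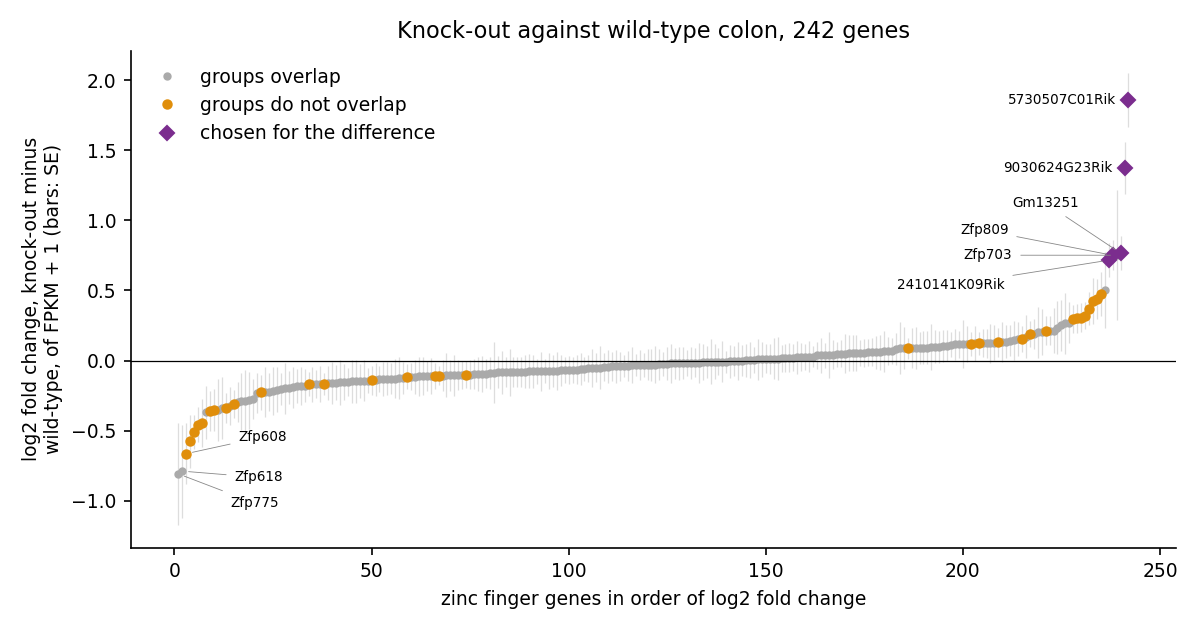
Log2 fold change (knock-out minus wild-type, of FPKM + 1; bars, SE) of the 242 zinc finger genes in rank order. Grey points have groups that overlap, orange points do not, and purple diamonds are the 5 genes chosen for their difference, which lie between 0.72 and 1.86 while all but 7 of the others lie within 0.5 of 0.

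Apart from the chosen genes, the separated members with the highest fold changes were narrow in gap: in the 10 genes that follow, the lowest knock-out library was 1.01 (Zfp946) to 1.20 (Zfp873) times the highest wild-type library. Zfp667 stood at 2.08, 1.70 and 1.43 FPKM in knock-outs and 0.80, 1.30 and 0.81 in wild-types, a log2 fold change of 0.48 ± 0.16 (SE; adjusted p = 0.396, limma). The lowest knock-out was 1.10 times wild-type replicate 2, the highest wild-type. Zfp951 had 2.03, 1.48 and 2.24 FPKM against 1.05, 1.07 and 1.30. Zfp820 had 3.82, 5.20 and 3.63 FPKM against 2.83, 3.46 and 2.34. In Zfp951 the nearest wild-type library was replicate 3, in Zfp820 replicate 2. Zfp873 stood at 2.21, 1.75 and 2.09 FPKM in knock-outs and 1.46, 1.27 and 1.26 in wild-types. Zfp960 stood at 5.21, 5.77 and 6.0 against 4.34, 4.10 and 4.55 FPKM. Both had wild-type replicate 2 within the range of, or below, the other wild-types. The log2 fold changes of these 4 genes were 0.44 (Zfp951), 0.43 (Zfp820), 0.37 (Zfp873) and 0.32 (Zfp960). Zfp781 (0.31), Zfp688 (0.30), Zfp433 (0.30), Zfp628 (0.21) and Zfp946 (0.19) were higher by less, with adjusted p between 0.396 and 0.418. Of the last, Zfp946 was separated by little: its lowest knock-out library, 14.04 FPKM, was 1.01 times the highest wild-type, 13.84. Zfp644, whose product recruits the histone methyltransferase G9a, and Zfp143, which encodes a promoter-binding activator, were also separated, at 0.15 and 0.12; both were named after their values were seen.

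Lower in knock-out colon, with groups apart, were Zfp608 and Zfp750. Zfp608 stood at 1.32, 1.26 and 1.74 FPKM in knock-outs and 3.28, 1.80 and 3.77 in wild-types (log2 fold change -0.66 ± 0.22 SE, adjusted p = 0.396, limma). Zfp750, a regulator of epidermal differentiation, had 2.09, 1.41 and 2.40 FPKM against 3.39, 2.64 and 4.24, a log2 fold change of -0.58. In both genes wild-type replicate 2 was the wild-type library nearest to the knock-outs. Zfp239 was even within knock-outs, at 3.65, 3.63 and 3.57 FPKM, against 5.77, 4.66 and 6.43 in wild-types. Zfp428 had 0.90, 0.98 and 1.04 against 1.96, 1.40 and 1.79 FPKM. The gap between groups was widest in these genes among the members not chosen: the lowest wild-type was 1.28 times the highest knock-out for Zfp239 and 1.35 times for Zfp428. Zfp428 met the minimum mean of 1 FPKM only through the wild-types. By contrast, Zfp68 was separated by a ratio of 1.03, at 5.45, 5.08 and 5.29 in knock-outs and 8.18, 5.60 and 9.25 in wild-types. Zfp704 likewise had 2.47, 2.20 and 2.52 FPKM against 3.56, 2.55 and 4.02. The other named members in this direction were Zfp235 (-0.36), Zfp12 (-0.34), Zfp326 (-0.31), whose product is part of a complex linking transcript elongation and splicing, and Zfp142 (-0.23). Their adjusted p lay between 0.396 and 0.442 (limma).

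Seen against each wild-type library alone, the chosen genes stood apart from the rest. All 5 differed from every wild-type library by more than 0.5 in log2(FPKM + 1), as they were chosen to. Of the 237 others, 10 differed by more than 0.5 from wild-type replicate 1, 0 from replicate 2 and 20 from replicate 3. The widest differences from replicate 2 were 0.49 (Zfp951) and -0.49 (Zfp692, named after its values were seen). Over all genes tested these counts were 1623 (14.3%), 225 (1.98%) and 2495 (22.0%). Wild-type replicate 2 was also the library nearest to the knock-outs in 17 of the 32 separated members that were not chosen (53.1%), against 72.0% of the 1923 separated genes overall.

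**Figure D3:**
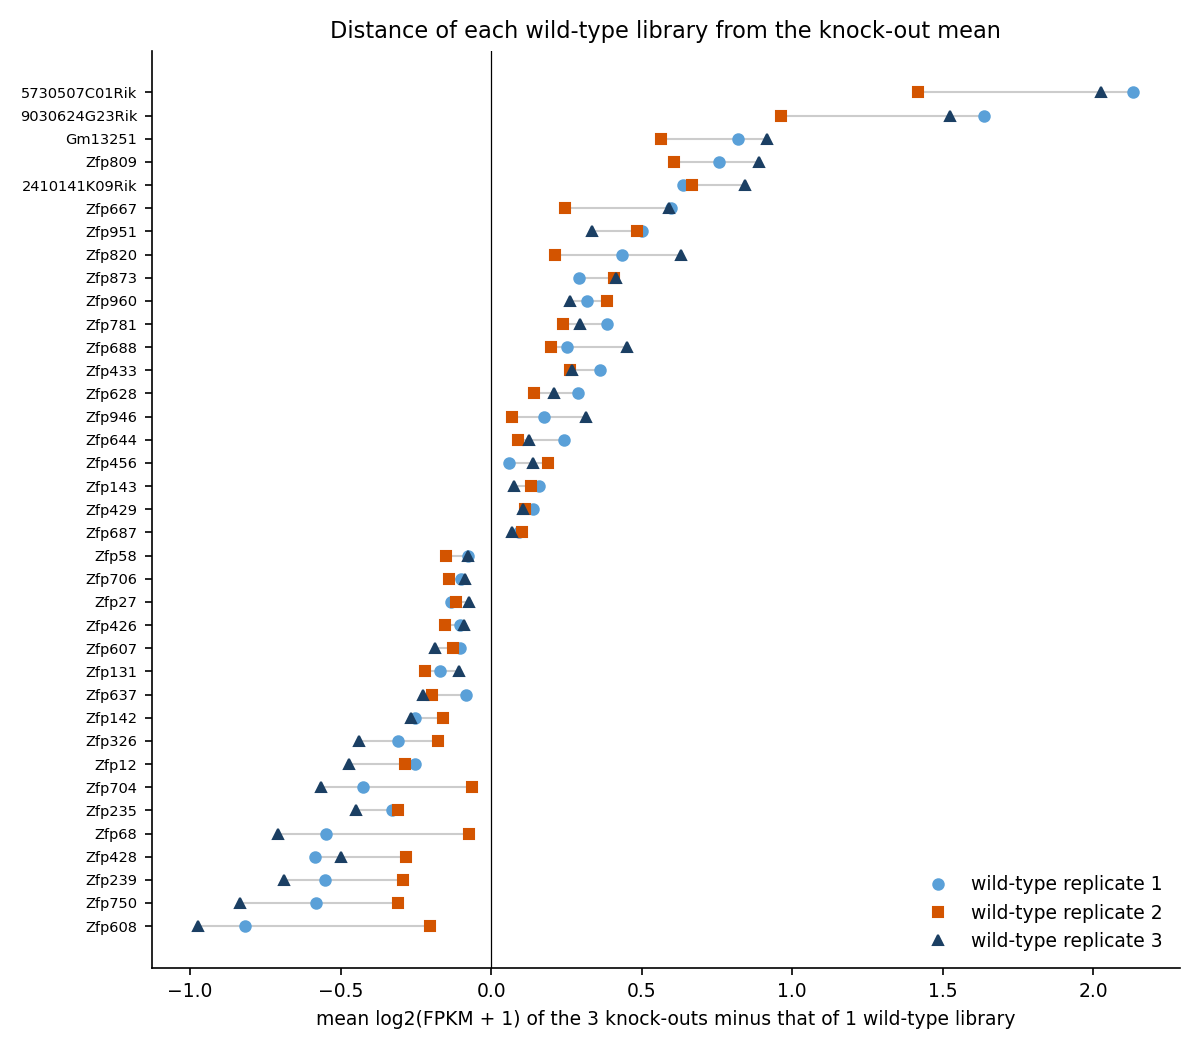
Mean log2(FPKM + 1) of the 3 knock-outs minus that of each wild-type library (light circle, replicate 1; orange square, replicate 2; dark triangle, replicate 3) for the 37 members whose groups do not overlap. In the top 5 rows, the chosen genes, all 3 wild-type libraries lie at least 0.56 from the knock-out mean, while for Zfp68 and Zfp704 replicate 2 lies close to 0.

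Without wild-type replicate 2, 18 of 242 members passed (7.44%), against 16.4% of 11344 genes tested. Of these 9 were higher (3.72%, against 9.21% of all genes) and 9 lower (3.72%, against 7.19%). These counts include the 5 chosen genes, which were picked for this contrast, so their place among them is no support. Of the other 237, 4 passed as higher and 9 as lower, 5.49% in all. In this fit of 5 libraries Zfp667 (0.59), Zfp608 (-0.89), Zfp239 (-0.62), Zfp428 (-0.54), Zfp68 (-0.63), Zfp704 (-0.50) and Zfp750 (-0.71) passed, with adjusted p between 0.0101 and 0.0437 (limma). Zfp951, Zfp820, Zfp873 and Zfp960 did not (adjusted p = 0.0745 to 0.134). Replicate 2 was left out because earlier results of these data placed it with the knock-outs. That choice widens the difference between the groups, so adjusted p-values of this fit, here and below, are not error rates. The number depended on the remaining libraries, with 6 members passing when wild-type replicate 3 was left out too (2.5%, against 6.66% of all genes), 8 without knock-out replicate 1 (3.32%, against 7.25%) and 9 without knock-out replicate 3 (3.73%, against 7.66%).

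In 6 of the 18 the groups overlap over all 6 libraries, with wild-type replicate 2 beside the knock-outs. They were named after their values were seen. Zfp703 and Zfp503, paralogs that encode corepressors of the NET family, were high wherever the position score was high. Zfp703 stood at 16.83, 13.26 and 16.79 FPKM in knock-outs and at 6.72, 20.44 and 4.73 in wild-types. Zfp503 stood at 2.0, 1.22 and 1.57 against 0.74, 1.66 and 0.30 FPKM. Wild-type replicate 2 was the highest of all libraries for Zfp703 and the second highest for Zfp503. The opposite order was seen in Zfp775, with 1.08, 0.76 and 1.01 FPKM in knock-outs and 2.96, 0.88 and 4.31 in wild-types. Zfp618 had 0.47, 0.50 and 0.90 FPKM against 1.99, 0.70 and 3.25. In both, wild-type replicates 1 and 3 were the highest of the 6 libraries and replicate 2 lay among the knock-outs. Zfp53 (5.55 to 6.21 FPKM in knock-outs, 5.94 in wild-type replicate 2, 4.03 and 4.21 in the others) and Zfp597 (1.91 to 2.39, 2.08, and 3.21 and 4.01) completed the group. Over 6 libraries their log2 fold changes were 0.75 ± 0.46 (Zfp703), 0.50 ± 0.27 (Zfp503), 0.27 (Zfp53), -0.81 ± 0.37 (Zfp775), -0.79 ± 0.33 (Zfp618) and -0.37 (Zfp597), with SE where given, and none passed (adjusted p = 0.396 to 0.484, limma). With the position score as a covariate the difference for Zfp703 turned to -0.29 and that for Zfp503 to -0.07, while Zfp775 stood at -0.04 and Zfp618 at -0.10. These 6 genes were picked for passing only when wild-type replicate 2 was left out, so that library lies near the knock-outs by choice. The position score orders the libraries alike, so the change under the covariate largely follows from that choice and is no separate result.

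**Figure D4:**
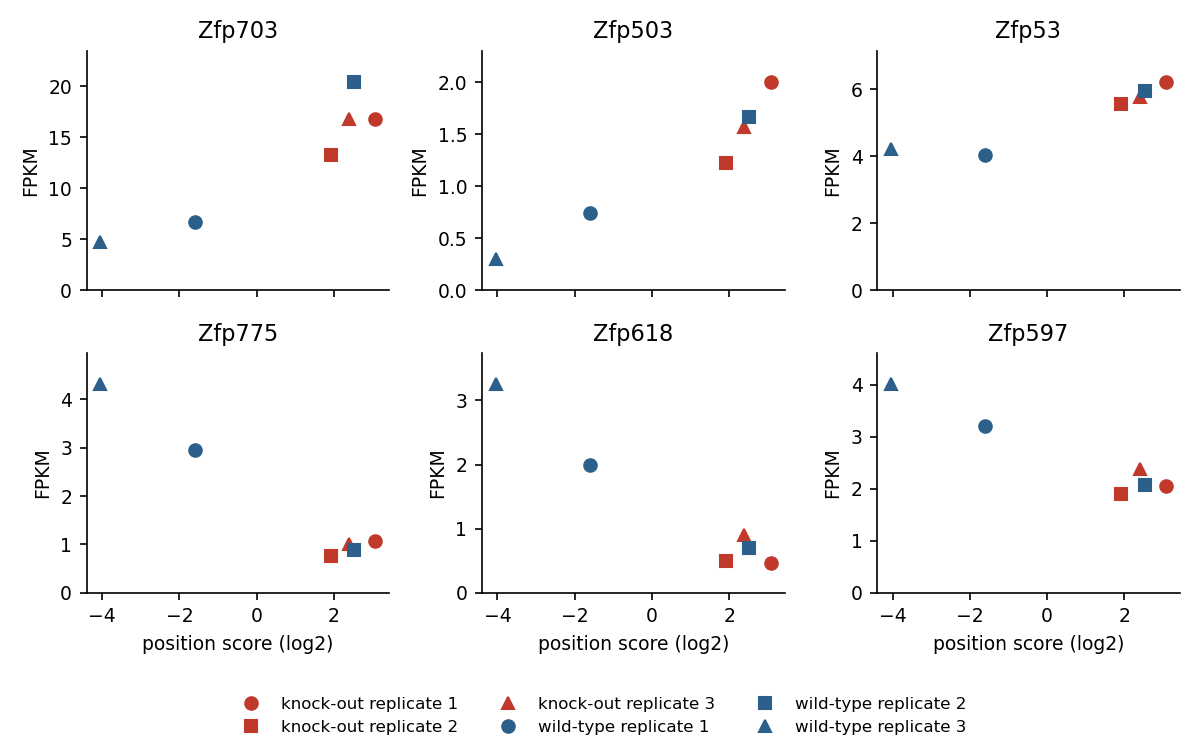
FPKM of 6 members against the position score (log2 units; high, more proximal HOX RNA), 1 point per library, red for knock-out and blue for wild-type, with marker shape for the replicate number. Wild-type replicate 2, the blue square, lies beside the knock-outs in all 6 panels, and wild-type replicates 1 and 3 lie apart on the left. The 6 genes were picked for passing only without replicate 2, so this layout follows from the choice.

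With that covariate 0 members passed (limma; 0.0% of all genes). At an unadjusted p under 0.05 there were 8, or 3.31%, against 3.68% of all genes. Of these, 5 were the chosen genes, which were picked for this contrast. Among the other 237 there were 3 (1.27%), Zfp951 (0.49), Zfp960 (0.40) and Zfp239 (-0.31). Across 6 libraries, 21 of 242 members correlated with the position score at r above 0.8 (8.68%) and 28 at r below -0.8 (11.6%). Of all 11366 genes tested, 2153 (18.9%) and 1790 (15.7%) did. The points share the 2 genotypes, so these correlations are a description only.

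Among the 5 members of highest level the groups overlapped, apart from Zfp706. Zfp36 encodes tristetraprolin, which binds AU-rich mRNA, and had the highest mean of all members, 64.6 FPKM. It ranged from 60.41 to 68.25 FPKM in knock-outs and from 59.00 to 73.98 in wild-types (log2 fold change -0.0022 ± 0.11, SE). Zfp207, which encodes a spindle and kinetochore protein, followed at 61.5 FPKM, Zfp706 at 54.4, Zfp91, a ubiquitin ligase gene, at 33.5 and Zfp488 at 26.9. Their log2 fold changes were -0.08, -0.11, 0.03 and 0.02. Of these Zfp706 was separated, at 52.51, 53.71 and 50.69 FPKM in knock-outs and 56.11, 57.71 and 55.60 in wild-types, a difference of small size that did not pass (adjusted p = 0.486, limma). The sign of the log2 difference depended on the scaling for Zfp36, which was negative as deposited and positive with equal sums, median centring or quantile normalization.

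The partners through which KRAB zinc finger proteins silence chromatin showed no difference that passed. Trim28 stood at 22.96, 18.08 and 23.46 FPKM in knock-outs and 20.64, 24.70 and 21.62 in wild-types. Setdb1 stood at 6.62, 5.84 and 7.97 against 6.65, 7.70 and 7.69 FPKM. In both genes the groups overlapped. Of 25 corepressor genes tested, 0 passed over 6 libraries (limma) and 3 had an unadjusted p under 0.05 (12.0%, against 12.5% of all genes). Separated were 3 (12.0%, against 16.9% of all genes), and the median log2 fold change was -0.04. The lowest p belonged to Sumo2, a small modifier protein used in TRIM28 silencing (-0.23), the TRIM28 relative Trim24 (-0.28), the histone deacetylase gene Hdac1 (0.69) and Morc3 (0.22). Hdac1 stood at 128.71, 125.54 and 112.04 FPKM in knock-outs and 72.64, 114.23 and 51.44 in wild-types, with wild-type replicate 2 among the knock-outs. Its log2 difference was 0.10 with the position covariate. That fit rests largely on wild-type replicate 2, and the part of position was not tested. All 4 tested genes listed for the HUSH complex, which spreads H3K9 methylation over transposons and transgenes, had negative log2 fold changes over 6 libraries (Mphosph8 -0.24, Morc2a -0.08, Fam208a -0.06, Pphln1 -0.05). So did 6293 of all 11366 genes tested. With the position covariate 2 of the 4 were positive, Fam208a and Pphln1 at 0.08 each, and Mphosph8 stood at -0.14 and Morc2a at -0.11. Without wild-type replicate 3 Fam208a (0.03) and Pphln1 (0.02) were positive, and without knock-out replicate 2 Pphln1 and Morc2a (0.02 each). None of the 4 was separated over 6 libraries, and 0 had an unadjusted p under 0.05. Without wild-type replicate 2, 2 of the 29 corepressor and HUSH genes passed, Hdac1 and Chd3, both higher, against 16.4% of all genes.

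In other families with C2H2 fingers, too, no gene passed over 6 libraries. Of 35 Zbtb genes, which join fingers to a BTB domain, 0 passed (limma), 2 had an unadjusted p under 0.05 (5.71%, against 12.5% of all genes), 5 were separated (14.3%, against 16.9%) and the median log2 fold change was -0.08. Zbtb25 (-0.32), Zbtb42 (-0.23), Zbtb18 (-0.32) and Zbtb7b (0.23) had the lowest p. Of 13 Zscan and Zkscan genes, which carry a SCAN domain, 0 passed or had an unadjusted p under 0.05. Among them 1, Zkscan1 (0.17), was separated (7.69%, against 16.9% of all genes). Zscan29 stood at -0.11, Zscan26 at 0.11 and Zkscan14 at 0.15. Of 18 genes matched as Klf or Sp, 0 passed and 2 had an unadjusted p under 0.05 (11.1%, against 12.5% of all genes). Separated were 3 (16.7%, against 16.9%): Sp100 (0.36), a nuclear body gene caught by its symbol and not a C2H2 gene, Sp2 (0.30) and Klf11 (0.26). Klf9 stood at -0.33 and followed wild-type replicate 2, with 12.52 to 13.77 FPKM in knock-outs, 12.85 in that library and 18.78 and 19.85 in the others. Among 13 Zfp genes with a letter after the number, a list added after the data were seen, 0 passed and 0 had an unadjusted p under 0.05. In this list 1, Zfp322a (-0.17), was separated (7.69%, against 16.9% of all genes). Without wild-type replicate 2, 2 of 35 Zbtb genes passed, Zbtb7c (0.90) and Zbtb7b (0.32), against 16.4% of all genes (limma). In that fit 0 of 14 Zscan and Zkscan genes passed, 1 of 18 Klf and Sp genes, Klf9 (-0.51; adjusted p = 0.0138, limma), and 1 of 13 lettered genes, Zfp385b (-0.62; adjusted p = 0.0301, limma). Within the Zfp280 family, Zfp280b (4.71, 4.98 and 4.89 FPKM in knock-outs, 5.06, 4.87 and 4.83 in wild-types) and Zfp280d (4.26, 3.71 and 4.0 against 3.81, 3.56 and 4.63) overlapped between the groups.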

How the data were processed

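RNA had been selected by its polyA tail and primed with random hexamers, per the labels' protocols. The authors deposited FPKM values, per the file headers, with 2 decimals for each of 17383 mouse genes in 6 libraries. Tools named in the submitters' processing notes are edgeR, HTSeq, Bowtie2 and HISAT, with no version or role. The mouse build, and how reads shared by similar genes were assigned, are not given in the sources used here. FPKM sums per library were 491900.5 to 507206.3; read depth is unknown, so no counting interval is given. The cell line table was not used here.

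Values were taken as log2(FPKM + 1), which understates changes of low genes. All 11366 genes with a mean of at least 1 FPKM were fitted with limma 3.58.1 in R 4.3.3 (trend in the variance, no block), with Benjamini-Hochberg adjustment over all of them and a threshold of 0.05. The procedure was tested on simulated data. Members and gene lists were chosen with earlier results of these data known. Named genes were the 5 chosen ones, the 10 highest and 10 lowest fold changes among the other separated members, the 5 highest levels, the 3 Zfp genes on each side of the minimum, the genes most like Zfp809 and up to 4 of lowest p per list. Names from outside this rule are marked as such where they appear. Alternatives were other pseudocounts (0.1, 0.5), minimum means (none, 0.5, 3), 3 rescalings, robust variance, the replicate number as a block, the position score as a covariate and leaving out each library. The planned comparisons by KRAB motif, by finger count and by gene order needed a mouse reference and were not run, and no sequences are printed.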

Additional observations from a re-analysis of the deposited data

How the results depend on the processing

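The count of members that passed was 0 under every alternative except the fit without wild-type replicate 2, so it ranged from 0 to 18 when 1 library was left out; the KRAB corepressor and HUSH genes ranged from 0 to 2 and the other C2H2 families from 0 to 3 in the same way. The count of members with groups that do not overlap was 37, and 22 with a minimum mean of 3 FPKM, where 145 members were tested (15.2%, against 17.6% of all genes). It was 41 with median centring (16.9%, against 17.8% of all genes) and 39 with quantile normalization (16.1%, against 19.1%). It was 51 to 78 when 1 library other than wild-type replicate 2 was left out (21.25% to 32.4%, against 20.4% to 27.3% of all genes). Fewer libraries bring such a rise by construction. Without wild-type replicate 2 it was 98, more than without any other library. That was 40.5% of the members, against 48.5% of all genes. Without wild-type replicate 2, alternatives added after the data were seen gave 9 of 144 members with a minimum mean of 3 FPKM in place of 18 (17.2% of all genes), and 6 to 17 when a further library was left out (6.66% to 17.1% of all genes); where 1 wild-type library was left, it was assumed to vary like the knock-outs. Deviations from the group mean of same-numbered libraries correlated at -0.45, -0.14 and 0.15, and those of differently numbered libraries at -0.18 to 0.33. As deviations within a group sum to 0, these values cannot show whether the replicate numbers pair the libraries. With the replicate block 0 members passed over 6 libraries, and 12 without wild-type replicate 2 (4.96%, against 11.0% of all genes). With the position covariate Zfp703 turned from 0.75 to -0.29 and Zfp503 from 0.50 to -0.0678. Among the genes named by the rule, these log2 differences changed sign. Zfp36 turned to 0.0228 (equal sums), 0.0135 (median centring), 0.00678 (quantile normalization), 0.00380 (position covariate), 0.0432 (without knock-out replicate 1) and 0.0952 (without wild-type replicate 1), with a range of -0.0655 to 0.0952 when 1 library was left out. Zfp207 turned to 0.0162 (position covariate) and 0.00413 (without knock-out replicate 2; range -0.135 to 0.00413), and Zfp91 to -0.0231 (without wild-type replicate 1; range -0.0231 to 0.0611). Zfp488 turned to -0.0475 (position covariate) and -0.0617 (without knock-out replicate 1; range -0.0617 to 0.0837). Zfp563 turned to 0.00139 (equal sums), 0.00462 (median centring), 0.0908 (position covariate), 0.00901 (without knock-out replicate 1) and 0.0394 (without knock-out replicate 3), with a range of -0.0671 to 0.0394. The cause was not tested. No rescaling moved the median of all genes by more than 0.1 in log2.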
